A study of Mus musculus with 6 samples.

Results

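NKG2D is an activating receptor of natural killer (NK) cells and T cells that binds proteins displayed by stressed, infected or transformed cells. The 7 genes described here are its receptor complex and those of its mouse ligands that were chosen by symbol. They are Klrk1, which encodes NKG2D itself, the signalling adaptors Hcst (DAP10) and Tyrobp (DAP12), and the ligand genes Raet1e, Ulbp1 (MULT1), H60b and H60c. All 7 were found by symbol among the 32285 genes counted in each of 6 single-cell RNA libraries of mouse skin. NKG2D has no signalling motif of its own. It works through DAP10, which recruits phosphoinositide 3-kinase, and in mice also through DAP12, which carries an activation motif read by the kinases Syk and Zap70. H60c is known in mice as a ligand of the skin that engages dendritic epidermal T cells, the γδ T cells that live among keratinocytes. In alopecia areata, CD8 T cells bearing NKG2D are known to gather at hair follicles in people and in the C3H/HeJ mouse.

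The study asked how skin cells differ between UP_Del mice with alopecia, UP_Del mice without alopecia and wild-type mice. UP_Del denotes deletion of the upstream enhancer of Il2ra, the gene of the interleukin 2 receptor alpha chain, so both UP_Del groups carry the deletion and the wild type does not. The labels give C57/BL6 as the genotype of every sample, females of 17 to 18 weeks, and no treatment. Whole skin without its hypodermis was digested with Liberase, DNase and trypsin, and live CD45-positive cells (leukocytes) and CD45-negative cells were sorted and sequenced separately from their 5′ ends. Each of the 3 groups has 1 library per sort and the number of mice behind it is not given in the labels. With a single library on each side, the groups could not be tested against each other, and differences are described without replicates. Every interval given is a 95% interval of counting error alone (Poisson for a level, conditional binomial for a ratio, Clopper-Pearson for a share).

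The CD45-positive libraries held 9610 barcodes (alopecia), 3340 (no alopecia) and 6702 (wild type), with 50057357, 20116378 and 38407339 unique molecular identifiers (UMIs). The CD45-negative libraries held 7123, 16751 and 4575 barcodes in the same order, with 41014981, 116334373 and 25735064 UMIs. After filters, 8852, 3234 and 6313 CD45-positive cells and 4817, 14447 and 3293 CD45-negative cells were kept. The filter, mostly a limit on mitochondrial UMIs, removed 30.4% of CD45-negative barcodes in alopecia, 7.56% in no alopecia and 26.7% in wild type. Pairs of libraries shared 24 to 228 cell barcodes, at most 2.57% of the smaller library. Il2ra stood at 134 UMIs per 1000000 UMIs of the library's cells (CPM) in CD45-positive cells with alopecia and 149.8 CPM in those without, against 239 CPM in wild type.

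Cells were clustered without the 7 genes and without Il2ra, and clusters were named from marker lists. Each name below means cells like that type by their markers. NK cells carried Ncr1 at 759, 443 and 694 CPM, and dendritic epidermal T cells carried the Vγ5 gene Tcrg-V5 at 1469, 1674 and 1214 CPM in alopecia, no alopecia and wild type. Treg cells carried Foxp3 at 638, 876 and 700.1 CPM, and type 2 innate lymphoid cells (ILC2) carried Il13 at 378, 525 and 469.8 CPM. The ILC2 class held little Cd3e, at 18.7, 19.8 and 35.8 CPM, but all of its libraries held γδ T cell transcripts. Basal keratinocytes were marked by Krt5, suprabasal ones by Krt10, the upper follicle by Krt79, the inner root sheath by Krt25 and the hair shaft by Krt35. Several clusters stayed unnamed. Lymphoid clusters 10 and 12 were led by the granzyme gene Gzmc, and lymphoid clusters 4 and 2 carried the Ly49 receptor gene Klra1 with Cd3e. Keratinocyte cluster 8 was led by long genes, cluster 9 by Sostdc1 and cluster 14 by Krt16.

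By the GENCODE vM21 annotation of GRCm38, Klrk1 (ENSMUSG00000030149) lies at chr6:129610323-129623864 on the minus strand. Hcst (ENSMUSG00000064109, chr7:30417712-30419854, minus strand) and Tyrobp (ENSMUSG00000030579, chr7:30413760-30417585, plus strand) are neighbours, 126 bases apart, and do not overlap. The ligand genes are all on chromosome 10. H60c (ENSMUSG00000091618) is at chr10:3256208-3267771 and Ulbp1 (ENSMUSG00000079685) at chr10:7440362-7473638, both on the minus strand. Raet1e (ENSMUSG00000053219) spans chr10:22158569-22374139 on the plus strand, and H60b (ENSMUSG00000075297, chr10:22158586-22288849) lies wholly inside it and starts 17 bases after it. Raet1d (ENSMUSG00000078452, chr10:22360552-22374139), another ligand gene, lies inside the far end of Raet1e. Of the 90-base windows of Raet1e transcripts, 29.4% were found letter for letter in Raet1d or H60b transcripts, and 38.7% of those of Raet1d were found in Raet1e. The windows of Klrk1, Hcst and Tyrobp were found in no other gene, and those of Ulbp1 and H60c in 0.394% and 3.82% of cases. Values for Raet1e, H60b and Raet1d are therefore uncertain as to which of these genes the reads came from.

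RefSeq promoter sequences (GRCm38.p6) were on hand for 5 of the 7 genes. The likeness of Raet1e and Raet1d extends upstream of their starts, and the windows of the second Raet1e start (chr10:22173247-22173496, plus strand) and of Raet1d (chr10:22361644-22361893, plus strand) are shown for that reason. Each holds the 250 bases before the start. Offset by 2 bases, 245 of 248 aligned bases were identical (98.8%), and capitals mark the 3 bases that differ. The window of H60c (chr10:3267772-3268021, minus strand) is shown because the keratinocyte results turn on that gene, with no base in capitals.
Raet1e, second start: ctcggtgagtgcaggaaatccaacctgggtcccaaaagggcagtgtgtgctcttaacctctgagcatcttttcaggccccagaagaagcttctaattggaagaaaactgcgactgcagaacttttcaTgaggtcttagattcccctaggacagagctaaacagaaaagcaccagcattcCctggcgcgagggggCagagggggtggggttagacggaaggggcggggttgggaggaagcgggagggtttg
Raet1d: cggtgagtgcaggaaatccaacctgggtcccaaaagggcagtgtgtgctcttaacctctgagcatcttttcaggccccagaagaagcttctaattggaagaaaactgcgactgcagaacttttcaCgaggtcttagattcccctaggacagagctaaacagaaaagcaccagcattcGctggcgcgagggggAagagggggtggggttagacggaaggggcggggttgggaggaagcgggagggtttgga
H60c: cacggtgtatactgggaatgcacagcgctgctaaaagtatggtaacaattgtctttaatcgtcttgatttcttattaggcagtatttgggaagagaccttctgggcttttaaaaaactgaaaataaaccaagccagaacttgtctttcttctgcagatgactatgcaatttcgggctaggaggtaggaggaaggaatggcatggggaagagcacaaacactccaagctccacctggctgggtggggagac
An AP-1 motif (TGANTCA), an E2F motif (TTTNNCGC) and a STAT motif (TTCNNNGAA), where N is any base, were searched on both strands. None of the 3 had a match in the 7 windows searched, which cover the 5 genes with an entry and Raet1d. Over 32851 promoters of this length, 6.75% held the AP-1 letters, 4.28% the E2F letters and 7.02% the STAT letters.

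Klrk1 was a transcript of the sorted leukocytes. In all CD45-positive cells it stood at 156 CPM in alopecia, 188 CPM in no alopecia and 202 CPM in wild type, against 0.0272, 0.0293 and 0.211 CPM in the CD45-negative cells of the same groups. Within the lymphocytes its level ran over a wide range, high in NK cells, the Gzmc-led and Klra1-carrying clusters and dendritic epidermal T cells, intermediate in CD8 and dermal γδ T cells, low in CD4 T cells and ILC2, and near 0 in Treg cells.

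**Figure D1:**
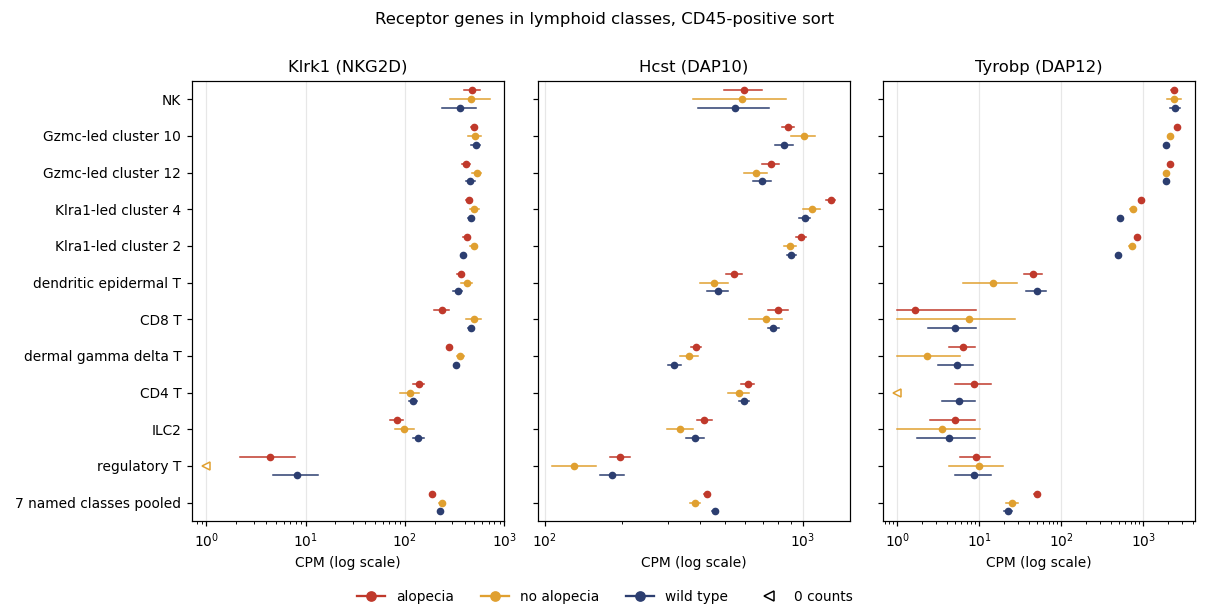
Level of Klrk1, Hcst and Tyrobp (CPM, log axis) in each lymphocyte class, with 1 point per library for alopecia, no alopecia and wild type. Bars are 95% counting intervals, some cut at the left edge, and an open triangle marks a library with 0 counts. Klrk1 and Hcst are detected in nearly every class, whereas Tyrobp spans NK cells at over 2000 CPM to CD8 T cells at 1.65 to 7.57 CPM.

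In NK cells Klrk1 stood at 478 CPM (interval 394 to 574) in alopecia, 466 CPM (285 to 720.3) in no alopecia and 360.2 CPM (237 to 524) in wild type, from 62, 11 and 14 cells. The intervals overlapped, and with so few NK cells in 2 of the 3 groups no ratio was formed. In the Gzmc-led cluster 10 the values were 495, 506 and 519 CPM in 235, 50 and 111 cells, with overlapping intervals in all groups. In the Gzmc-led cluster 12 they were 415, 527 and 457 CPM.

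In the Klra1-carrying cluster 4 Klrk1 stood at 439 CPM (409 to 471) in alopecia, 501 CPM (448 to 558) in no alopecia and 466 CPM (432 to 501) in wild type. In cluster 2 it stood at 419 CPM (389.9 to 449), 492 CPM (458 to 529) and 388 CPM (365 to 412). Dendritic epidermal T cells held 365 CPM (334 to 398), 420.0 CPM (367 to 478) and 343 CPM (308 to 381). In these classes the library without alopecia was the highest of the 3, by less than 1.5-fold over either of the others. The order of neighbouring classes, from the Gzmc-led clusters down to dendritic epidermal T cells, rested on intervals that mostly overlapped.

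Among the lymphocyte classes with at least 20 Klrk1 UMIs, CD8 T cells had the ratio of alopecia to wild type farthest from 1. The level was 235 CPM (198 to 276) with alopecia, against 496 CPM (414 to 588) without alopecia and 466 CPM (437 to 497) in wild type, from 142, 131 and 932 UMIs in 152, 60 and 451 cells. The alopecia library was thus well below the other two, whose intervals overlapped. The log2 ratio of alopecia over wild type was -0.99 (-1.26 to -0.74), and it lay between -1.12 and -0.97 under each of the 13 alternative settings tried. Over all genes of CD8 T cells tested in that comparison, 23.5% differed by at least 1.5-fold. The share of CD8 T cells with a Klrk1 UMI, after thinning every cell to 1000 UMIs, was 25.2% (18.4 to 33.0) with alopecia and 32.1% (27.8 to 36.7) in wild type, so the intervals of the shares overlapped.

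The CD8 T cells of the 3 libraries were not alike in other respects. All 5 of the red-cell genes looked for were detected in the alopecia cells, at 7507 CPM summed, and none of the 5 in either other library. Leaving out cells with a haemoglobin UMI gave a Klrk1 log2 ratio of -0.97, and keeping only cells with a Cd8a or Cd8b1 UMI gave -1.05. Gzmb, a granzyme of killer lymphocytes, stood at 160.2, 272 and 841 CPM, while Cd8a stood at 867, 1025 and 759 CPM. NK markers summed to 64.4, 34.1 and 170.1 CPM in this class, with the defining marker Ncr1 at 0 in all 3 libraries. The part of these differences in the Klrk1 result was not tested.

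Dermal γδ T cells, the producers of interleukin 17 in skin, held Klrk1 at 279 CPM (265 to 294) in alopecia, 362 CPM (334 to 391) in no alopecia and 328 CPM (309 to 348) in wild type. The alopecia library was the lowest, by a log2 ratio of -0.37 to no alopecia and -0.23 to wild type. Different clusters made up the class in each group. Its largest cluster held 27.9% of the class in alopecia (cluster 8), 52.9% in no alopecia (cluster 8) and 56.2% in wild type (cluster 5).

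In ILC2, Klrk1 stood at 83.0 CPM (71.4 to 96.0) in alopecia, 99.1 CPM (79.2 to 123) in no alopecia and 137 CPM (119.6 to 156) in wild type. The log2 ratio to wild type was -0.72 (-1.01 to -0.43) for alopecia and -0.47 for no alopecia, where 15.3% of all genes differed by at least 1.5-fold in the first of these comparisons. The γδ T cell markers found in ILC2 summed to 373, 480.4 and 600.0 CPM, lower in alopecia as Klrk1 was, and their part in the difference was not tested. CD4 T cells held Klrk1 at 138, 112 and 122 CPM, within 1.5-fold of each other. Treg cells held 11, 0 and 16 Klrk1 UMIs in 761, 219 and 520 cells, that is 4.34, 0 and 8.21 CPM.

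Treg cells and fibroblasts gave the background of stray Klrk1 UMIs. After thinning to 1000 UMIs, 0.270% of Treg cells in alopecia, 0 in no alopecia (which allows up to 1.41%) and 0.975% in wild type had a Klrk1 UMI. In fibroblasts caught in the CD45-positive sort, the shares were 0.730%, 0% and 1.19%, with a median depth of 2993.5, 3400 and 3986 UMIs against 3617, 4412 and 4005 UMIs in the pooled lymphocytes. Gzmc-led cluster 10 reached 39.6%, 48.0% and 36.4%, and CD4 T cells 11.5%, 8.47% and 9.99%, all above that level.

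Over the pool of the 7 named lymphocyte classes, Klrk1 stood at 189 CPM (182 to 196) in alopecia, 235 CPM (222 to 249) in no alopecia and 228 CPM (219.5 to 236) in wild type. The log2 ratios were -0.32 for alopecia over no alopecia, -0.27 for alopecia over wild type and 0.05 for no alopecia over wild type, and none reached 1.5-fold. The make-up of that pool differed between the groups. CD8 T cells were 4.21% of it in alopecia and 5.59% in no alopecia, against 14.5% in wild type, and Treg cells were 21.1%, 20.4% and 16.7%.

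Several myeloid classes also carried Klrk1 UMIs. Macrophages held 89.6 CPM (80.3 to 99.6) in alopecia, 142 CPM (121 to 164) in no alopecia and 159.6 CPM (144 to 177) in wild type. T cell receptor transcripts were common in that class, with 59.6% of all macrophages carrying 3 or more such UMIs. Klrk1 stood at 23.9 CPM in macrophages with none of these UMIs and at 138 CPM in those with 3 or more, all groups together. For Langerhans cells the values were 5.11 and 104 CPM. NK cells without such UMIs held 548 CPM. The log2 ratio of Klrk1 for alopecia over wild type was -0.83 in all macrophages. It was -2.20 (-3.59 to -0.83) in macrophages with no T cell receptor UMI. The part of T cell RNA in the myeloid values was not tested. Of the macrophages, 30.8% in alopecia, 22.8% in no alopecia and 18.4% in wild type carried none.

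Hcst, the DAP10 adaptor, was detected in every lymphocyte class and varied less between groups than between classes. In the pooled lymphocytes it stood at 425 CPM (414 to 436) in alopecia, 382 CPM (365 to 399.8) in no alopecia and 457 CPM (445 to 468) in wild type. None of the 3 ratios reached 1.5-fold. Cluster 4 stood at the top of the lymphocyte classes, with 1288 CPM (1235 to 1341) in alopecia, 1084 CPM (1006 to 1166) in no alopecia and 1022 CPM (972 to 1073) in wild type. The alopecia interval there lay above both others.

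CD8 T cells, in which Klrk1 was lower with alopecia, held Hcst at 804, 719 and 769.9 CPM, with overlapping intervals. Dendritic epidermal T cells held 543 CPM (505 to 584), 453 CPM (398 to 514) and 468 CPM (427 to 512). CD4 T cells held 612, 565 and 593 CPM, ILC2 415, 335 and 383 CPM, and dermal γδ T cells 385, 363 and 318 CPM. Treg cells were the lowest class, at 196 CPM (179 to 214) with alopecia, 130.2 CPM (106 to 158) without alopecia and 182 CPM (164 to 202) in wild type. Treg cells thus held the adaptor transcript while Klrk1 was near 0 in them. Their log2 ratio of alopecia over no alopecia was 0.59 (0.28 to 0.91), at the edge of the 1.5-fold rule, and it stayed past 1.5-fold under 7 of 11 alternative settings. In that comparison 19.7% of all genes of Treg cells differed by at least 1.5-fold. Pooled keratinocytes held 0.252, 0.321 and 0.298 CPM of Hcst.

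Tyrobp separated the lymphocytes into classes that held it and classes that nearly lacked it. It stood at 2352 CPM (2161 to 2555) in NK cells with alopecia, 2379 CPM (1939 to 2887) in those without and 2454 CPM (2113 to 2836) in wild-type NK cells. These intervals overlapped. Gzmc-led cluster 10 held 2565 CPM (2484 to 2648), 2146 CPM (1993 to 2307) and 1910.5 CPM (1813 to 2011), highest in alopecia, and cluster 12 held 2101, 1920.2 and 1919 CPM. Tyrobp was scarce in many other lymphocytes. Its level in CD8, CD4, dermal γδ and Treg cells and in ILC2 lay between 0 and 10.0 CPM in every library.

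In the Klra1-carrying T cells, Tyrobp was higher in both UP_Del groups than in wild type. Cluster 4 held 948 CPM (903 to 994) in alopecia and 745 CPM (681 to 814) in no alopecia, against 525 CPM (490.0 to 563) in wild type. Cluster 2 held 843 CPM (802 to 885) and 722 CPM (680.0 to 765), against 493 CPM (467 to 520.4). In both clusters the 3 intervals were separate and ran in the same order. The log2 ratio of alopecia over wild type was 0.85 (0.73 to 0.97) in cluster 4 and 0.77 (0.67 to 0.88) in cluster 2, past 1.5-fold in all 11 alternative settings. For no alopecia over wild type it was 0.50 and 0.55, and for alopecia over no alopecia 0.35 and 0.22.

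Of all genes tested for alopecia over wild type, 14.9% in cluster 4 and 13.3% in cluster 2 differed by at least 1.5-fold. Macrophage markers summed to 26.5, 10.6 and 19.9 CPM in cluster 4 and 22.2, 13.5 and 14.2 CPM in cluster 2, and their part in the Tyrobp difference was not tested. Cluster 4 was marked by Ifng at 565, 692 and 684 CPM and cluster 2 by less of it, at 114, 103 and 133 CPM. After thinning to 1000 UMIs, 30.9%, 22.9% and 19.3% of the cells of cluster 4 had a Tyrobp UMI, and 28.3%, 30.04% and 20.04% of those of cluster 2.

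**Figure D2:**
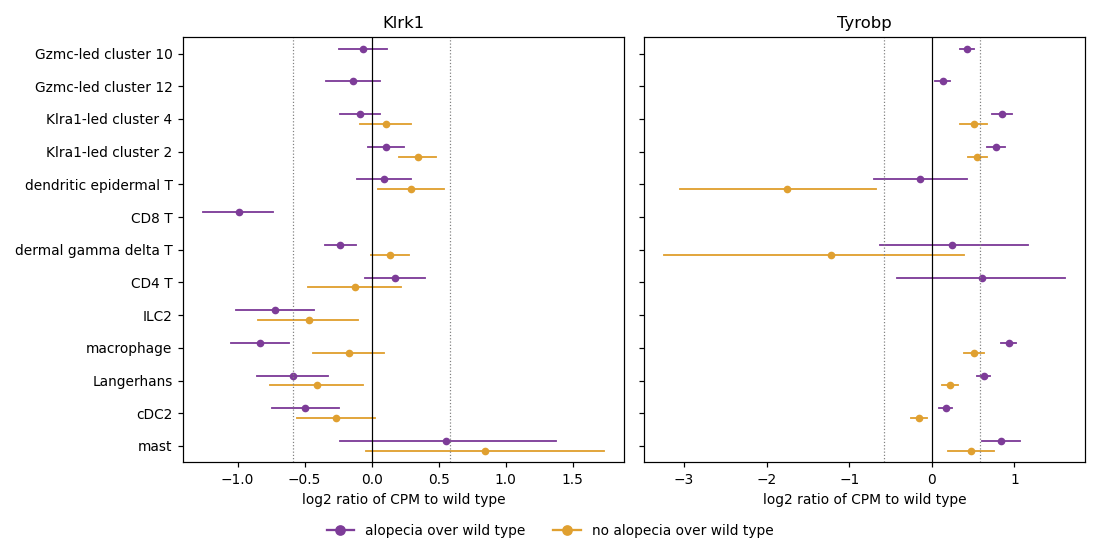
Log2 ratio to wild type of Klrk1 (left) and Tyrobp (right) in lymphocyte and myeloid classes, for alopecia and for no alopecia, with 95% counting intervals. Dotted lines mark 1.5-fold. Points outside the lines include, for alopecia, Klrk1 in CD8 T cells (-0.99), macrophages (-0.83) and ILC2 (-0.72). For Tyrobp in alopecia they include macrophages (0.93), cluster 4 (0.85), mast cells (0.84), cluster 2 (0.77) and Langerhans cells (0.63). Tyrobp in dendritic epidermal T cells (-1.76) lies outside for no alopecia.

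In dendritic epidermal T cells Tyrobp was low, and the library without alopecia stood apart. It held 45.5 CPM (34.9 to 58.2) in alopecia, 14.8 CPM (6.39 to 29.2) in no alopecia and 50.1 CPM (37.3 to 65.8) in wild type, from 63, 8 and 51 UMIs. The log2 ratio was 1.62 (0.55 to 2.89) for alopecia over no alopecia and -1.76 (-3.05 to -0.67) for no alopecia over wild type. Over all genes of the class, 23.4% and 22.4% differed by at least 1.5-fold in those comparisons. Macrophage markers, whose cells hold much Tyrobp, summed to 154, 90.7 and 64.8 CPM in the class, and leaving out cells with RNA of another lineage gave a log2 ratio of 3.49 (0.88 to 8.85) for alopecia over no alopecia.

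Pooled over the named lymphocytes, Tyrobp stood at 50.6 CPM (46.9 to 54.5) in alopecia, 25.3 CPM (21.1 to 30.1) in no alopecia and 22.6 CPM (20.2 to 25.3) in wild type. The log2 ratio was 1.00 (0.72 to 1.28) for alopecia over no alopecia and 1.16 (0.96 to 1.36) for alopecia over wild type. NK cells, only 1.72%, 1.03% and 0.450% of the pool, held 561 of its 708 Tyrobp UMIs in alopecia, 102 of 127 in no alopecia and 184 of 307 in wild type. Without them the ratio of alopecia over wild type was 0.23, and with each class weighted as in wild type it was -0.02. The ratio of alopecia over no alopecia was 0.33 with those weights and 0.16 with the unnamed clusters added, both under 1.5-fold. It stayed past 1.5-fold in 12 of 14 alternatives, among them the pool without NK cells. In NK cells themselves the groups' intervals overlapped, as given above.

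For the 7 genes in the pooled lymphocytes, 2 differed by at least 1.5-fold in alopecia over no alopecia (Tyrobp and H60b, both higher), where 16.7% of all genes tested did. H60b rested on 23 and 5 UMIs, and its interval, given below, includes no difference. In alopecia over wild type 2 did (Tyrobp higher, Ulbp1 lower; 14.4% of all genes) and in no alopecia over wild type 1 did (Ulbp1, lower; 15.6% of all genes). H60c had no UMI in the pool. These comparisons share their libraries with one another.

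Myeloid cells carried Tyrobp as a rule. Macrophages held 1116 CPM (1082 to 1150.0) in alopecia, 836 CPM (786 to 889) in no alopecia and 586 CPM (555 to 619) in wild type, the same order as in clusters 4 and 2. Their log2 ratio of alopecia over wild type was 0.93, beside 21.3% of all genes past 1.5-fold. In macrophages free of T cell receptor UMIs, the level was 1797, 1248 and 1013 CPM and the ratio 0.83. Mast cells held 1009, 782 and 564 CPM, with a ratio of 0.84 beside 25.2% of all genes.

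Langerhans cells held Tyrobp at 1319.5, 996 and 855 CPM, with a ratio of alopecia over wild type of 0.63 (19.2% of all genes), but the ratio was 0.19 in those free of T cell receptor UMIs. Type 2 dendritic cells held 1076, 860.1 and 959 CPM, with a ratio of 0.17 that became -0.35 in cells free of T cell receptor UMIs. Fibroblasts of the CD45-positive sort, which should lack the gene, held 74.4, 7.39 and 18.3 CPM, higher in alopecia. These values lay below those of the myeloid classes named here.

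H60c was a keratinocyte transcript, and among keratinocytes one of the epidermis between follicles. Basal cells held 33.5 CPM (28.2 to 39.5) in alopecia, 32.4 CPM (30.4 to 34.4) in no alopecia and 32.7 CPM (24.2 to 43.2) in wild type, from 142, 1016 and 49 UMIs. Suprabasal cells held 29.1 CPM (23 to 36.2), 27.5 CPM (24.6 to 30.7) and 26.8 CPM (20.1 to 34.9). In neither layer did the groups separate. The log2 ratio in basal cells was 0.05 (-0.21 to 0.30) for alopecia over no alopecia, 0.03 (-0.44 to 0.53) for alopecia over wild type and -0.01 (-0.43 to 0.43) for no alopecia over wild type. All 3 intervals leave out a 1.5-fold difference either way, by counting error alone. Cluster 8, led by long genes, held 27, 27 and 25.8 CPM.

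**Figure D3:**
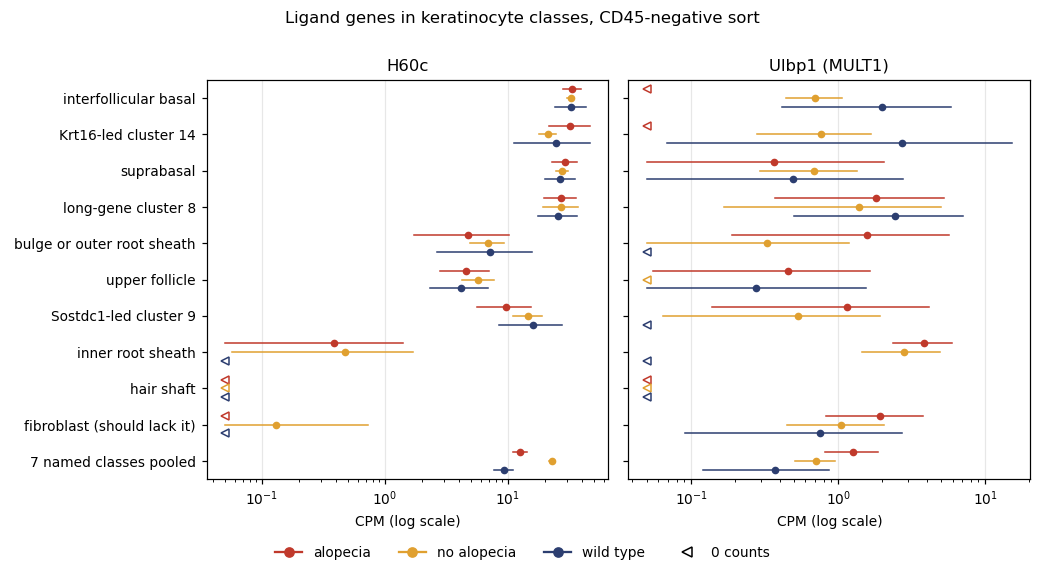
Level of H60c and Ulbp1 (CPM) in keratinocyte classes and in fibroblasts, with 1 point per library for alopecia, no alopecia and wild type and 95% counting intervals. H60c lies at 26.8 to 33.5 CPM in basal and suprabasal cells of all groups and near 0 in inner root sheath and hair shaft. Ulbp1 in the inner root sheath lies at 3.86 CPM in alopecia and 2.82 CPM in no alopecia, with 0 counts in wild type.

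Follicle keratinocytes held less. The upper follicle held H60c at 4.56 CPM (2.79 to 7.04) in alopecia, 5.75 CPM (4.23 to 7.65) in no alopecia and 4.16 CPM (2.33 to 6.85) in wild type. Bulge or outer root sheath cells held 4.71, 6.87 and 7.17 CPM, from 6, 42 and 6 UMIs. Inner root sheath cells held 2, 2 and 0 UMIs in 269, 246 and 260 cells, and hair shaft cells held none in 150, 26 and 63 cells. The gap between basal cells and upper follicle cells was wider than their intervals in each of the 3 libraries. Sostdc1-led cluster 9 lay between, at 9.72, 14.7 and 16 CPM from 17, 55 and 13 UMIs. Its log2 ratio passed 1.5-fold, at -0.59 (-1.47 to 0.21) for alopecia over no alopecia and -0.72 (-1.85 to 0.44) for alopecia over wild type, where 15.6% and 17.1% of all genes did, but both intervals include no difference. The Krt16-led cluster 14 held 32.2, 21.1 and 24.6 CPM.

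In the pooled keratinocytes H60c differed between the groups. It stood at 12.5 CPM (11 to 14.2) in alopecia, 22.9 CPM (21.8 to 24.2) in no alopecia and 9.25 CPM (7.70 to 11) in wild type. The log2 ratio was -0.87 (-1.07 to -0.68) for alopecia over no alopecia, 0.44 (0.12 to 0.76) for alopecia over wild type and 1.31 (1.04 to 1.59) for no alopecia over wild type. Basal cells were 19.8% of the pool in alopecia and 43.5% in no alopecia, against 9.90% in wild type. With each class weighted as in wild type, the same ratios were -0.02, 0.08 and 0.10. None of these weighted ratios reached 1.5-fold. The weighted values carry no interval.

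**Figure D4:**
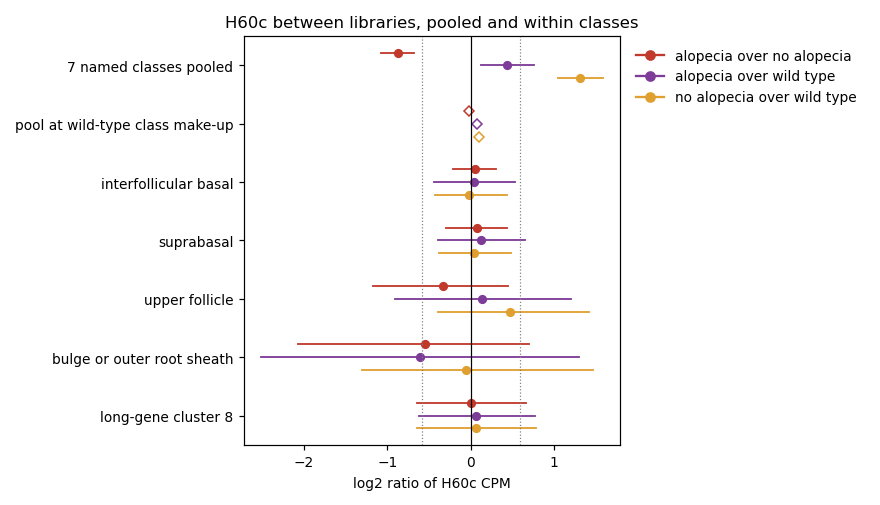
Log2 ratio of H60c for the 3 comparisons, in pooled keratinocytes, in the pool with classes weighted as in wild type (open diamonds) and in single classes, with 95% counting intervals where they apply. The pooled ratios of -0.87, 0.44 and 1.31 become -0.02, 0.08 and 0.10 with the wild-type class weights.

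Of the 7 genes in pooled keratinocytes, H60c and Ulbp1 differed by at least 1.5-fold in alopecia over no alopecia, where 31.3% of all genes tested did. In alopecia over wild type only Ulbp1 did, beside 10.5% of all genes. In no alopecia over wild type H60c, Ulbp1 and Tyrobp did, beside 36.0% of all genes, with Tyrobp at 42 and 3 UMIs. No member reached 1.5-fold in alopecia over wild type in basal cells (14.6% of all genes) or suprabasal cells (14.8%).

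H60c was read from few cells at a time. After thinning to 1000 UMIs, 3.34% (1.74 to 5.77) of basal cells in alopecia, 2.99% in no alopecia and 3.42% in wild type had a UMI. In fibroblasts it was 0 of 952, 2092 and 607 cells, which allows up to 0.315%, 0.143% and 0.494%. The named lymphocytes held no H60c UMI, with upper limits of 0.264, 0.735 and 0.272 CPM.

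Keratinocytes were also caught in the CD45-positive sort. Those of the upper follicle held H60c at 8.67 CPM in alopecia, 5.6 CPM in no alopecia and 2.75 CPM in wild type, from 23, 7 and 6 UMIs. Suprabasal ones held 21.6, 22.7 and 33.6 CPM, from 59, 33 and 65 UMIs. The log2 ratio of alopecia over wild type was 1.66 (0.32 to 3.24) in the first and -0.64 (-1.17 to -0.11) in the second, where 17.7% and 13.5% of all genes differed by at least 1.5-fold. In the upper follicle class basal markers summed to 10373, 8831 and 7921 CPM and suprabasal markers to 1911, 663 and 2178 CPM. In the suprabasal class basal markers summed to 20993, 22845 and 19559 CPM and suprabasal markers to 11603, 6475 and 12219 CPM. The part of these markers in the H60c differences was not tested.

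Ulbp1, the MULT1 ligand, was found mainly in cycling cells and in leukocytes. Cycling leukocytes, marked by Mki67 at 875, 966 and 932 CPM, held 44.4 CPM (34.3 to 56.5) in alopecia and 78.7 CPM (56.9 to 106) in no alopecia, against 120.5 CPM (103 to 139) in wild type. They came from 127, 47 and 131 cells, and the alopecia interval lay below both others. The log2 ratio of alopecia over wild type was -1.44 (-1.87 to -1.03), beside 18.3% of all genes past 1.5-fold, and it lay between -1.49 and -1.36 under 10 alternative settings. The sum of cycling markers was 2782, 2892 and 2779 CPM, alike in the 3 libraries. Treg markers in this class summed to 1784, 1409 and 2166 CPM and macrophage markers to 711, 490.3 and 404 CPM, and their part in the result was not tested.

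**Figure D5:**
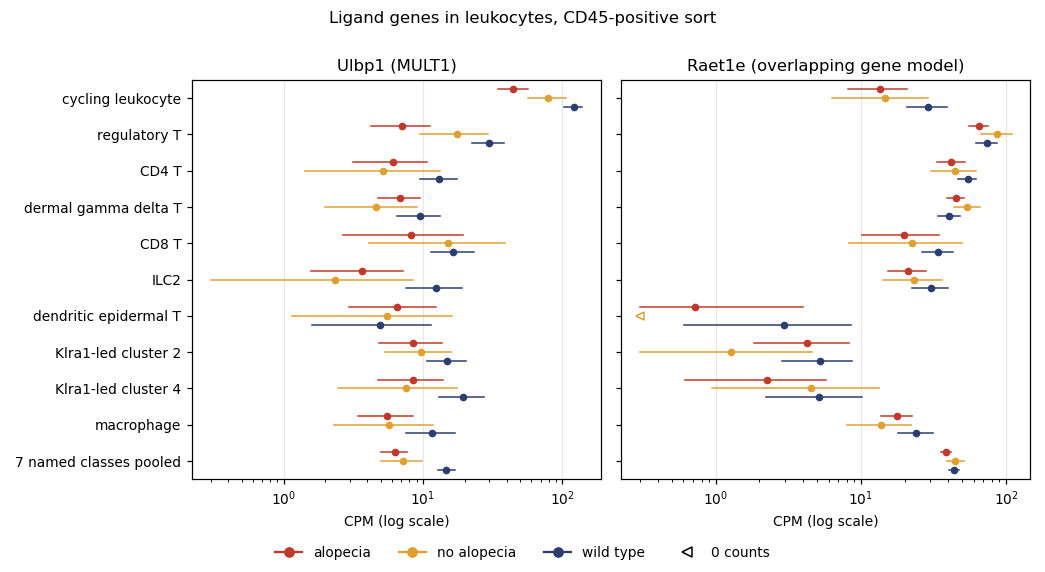
Level of Ulbp1 and Raet1e (CPM) in leukocyte classes, with 1 point per library for alopecia, no alopecia and wild type and 95% counting intervals, some cut at the left edge. In cycling leukocytes and Treg cells Ulbp1 is lowest in alopecia (44.4 and 7.1 CPM) and highest in wild type (120.5 and 29.8 CPM).

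In Treg cells Ulbp1 stood at 7.1 CPM (4.21 to 11.2) in alopecia and 17.5 CPM (9.58 to 29.4) in no alopecia, against 29.8 CPM (22.6 to 38.5) in wild type, from 18, 14 and 58 UMIs. The alopecia interval lay below the wild-type one. The log2 ratio was -2.07 (-2.92 to -1.28) for alopecia over wild type, -1.30 (-2.39 to -0.18) for alopecia over no alopecia and -0.76 (-1.72 to 0.10) for no alopecia over wild type, where 19.2% of all genes differed by at least 1.5-fold. The first lay between -2.43 and -2.03 under 11 alternative settings, beside 13.4% of all genes past 1.5-fold. Cycling markers summed to 60.4, 55.1 and 62.6 CPM in Treg cells.

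The same direction was seen in most other leukocytes, at low counts. For alopecia over wild type the log2 ratio of Ulbp1 was -1.10 in CD4 T cells (14.6% of all genes past 1.5-fold), -1.76 in ILC2, -1.19 in cluster 4, -0.82 in cluster 2 and -1.06 in macrophages. Dendritic epidermal T cells were an exception, at 6.49, 5.55 and 4.91 CPM from 9, 3 and 5 UMIs. Pooled over the named lymphocytes Ulbp1 stood at 6.29 CPM (5.04 to 7.75) in alopecia and 7.18 CPM (5.03 to 9.93) in no alopecia, against 14.8 CPM (12.8 to 16.9) in wild type. Both UP_Del intervals lay below that of wild type. The log2 ratio was -1.23 (-1.61 to -0.86) for alopecia and -1.04 (-1.59 to -0.52) for no alopecia, and both stayed past 1.5-fold under all 14 alternative settings. Between the 2 UP_Del groups it was -0.19 (-0.77 to 0.41). In all CD45-positive cells the levels were 6.57, 8.30 and 16.1 CPM, and in fibroblasts of that sort 2.01, 3.17 and 0 CPM.

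In keratinocytes Ulbp1 was rare. The pool held 25, 44 and 5 UMIs, or 1.26 CPM (0.815 to 1.86) in alopecia, 0.706 CPM (0.513 to 0.948) in no alopecia and 0.373 CPM (0.121 to 0.871) in wild type. The log2 ratio of alopecia over wild type was 1.75 (0.34 to 3.50), the opposite direction to that in most leukocytes. It lay between 0.87 and 2.10 under 13 alternative settings. The pool leaves out cycling keratinocytes, which held less Ulbp1 in alopecia than in wild type, at low counts. Most of the alopecia UMIs came from the inner root sheath, the layer that encases the growing hair. It held 20 UMIs in alopecia and 12 in no alopecia, against 0 in wild type, from 269, 246 and 260 cells. That is 3.86 CPM (2.36 to 5.95) and 2.82 CPM (1.46 to 4.93), against an upper limit of 0.801 CPM.

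Against a floor of 3 counts in the wild-type inner root sheath, Ulbp1 was 5.92-fold higher in alopecia and 4.34-fold higher in no alopecia. The floor is a convention, so these folds are not lower limits. Over all genes of that class 9.10% and 14.3% differed by at least 1.5-fold in those comparisons. Krt25 stood at 1427, 721 and 861 CPM in these cells and cycling markers summed to 1292, 1593 and 1468 CPM. Keratinocyte cluster 19 added 11, 0 and 0 UMIs from 203, 58 and 72 cells, and cycling keratinocytes held 6.34, 8.47 and 13.8 CPM from 5, 40 and 6 UMIs. Fibroblasts of the CD45-negative sort held 1.91, 1.05 and 0.755 CPM (alopecia interval 0.826 to 3.77), so the alopecia intervals of inner root sheath and fibroblasts overlapped.

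Raet1e, which encodes RAE-1ε, followed a different order over the lymphocyte classes from Klrk1, though several classes held both. Treg cells held 64.7 CPM (55.2 to 75.4) in alopecia, 86.4 CPM (67.2 to 109) in no alopecia and 73.9 CPM (62.3 to 87.0) in wild type. Dermal γδ T cells held 44.9, 53.9 and 40.8 CPM and CD4 T cells 41.8, 44.3 and 54.3 CPM. CD8 T cells held 19.8, 22.7 and 34.0 CPM and ILC2 21, 23.3 and 30.2 CPM. The classes at the top of the Klrk1 order held next to none. Gzmc-led cluster 10 had 0 UMIs in all 3 libraries, cluster 4 held 2.26, 4.55 and 5.14 CPM and dendritic epidermal T cells 0.722, 0 and 2.95 CPM.

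Between the groups Raet1e differed little in the lymphocyte pool, at 38.7 CPM (35.5 to 42.1), 44.8 CPM (39.2 to 51.1) and 43.8 CPM (40.4 to 47.5). In Langerhans cells it stood at 11.9 CPM (8.41 to 16.3) in alopecia and 20.2 CPM (13 to 29.8) in no alopecia, against 31.3 CPM (24.9 to 38.8) in wild type. The log2 ratio of alopecia over wild type was -1.40 (-1.99 to -0.83), beside 19.2% of all genes past 1.5-fold. Langerhans cells carried the T cell transcript Cd3e in every library, and Treg, CD4 and dermal γδ T cells held more Raet1e than they did. The part of T cell RNA in the Langerhans values of Raet1e was not tested. Cycling leukocytes held 13.5, 14.6 and 28.9 CPM. Keratinocytes held almost none, with 3, 1 and 1 UMIs in the pool. These values carry the overlap of Raet1e with Raet1d and H60b described above.

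H60b was close to the limit of detection. It had 23, 5 and 17 UMIs in the pooled lymphocytes, 12, 0 and 6 of them in Treg cells, and 1, 7 and 1 in all CD45-negative cells. The ratio of 0.72 for alopecia over no alopecia in the pool had an interval of -0.71 to 2.47. Raet1d had 3, 2 and 4 UMIs in CD45-positive and 0, 4 and 2 in CD45-negative cells.

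Up to 5 genes whose level followed each member most closely over cell classes were named by Pearson correlation of log2(CPM + 1). For Klrk1, Hcst and Tyrobp this used 66 sums of 25 CD45-positive classes by library, and for the ligands Ulbp1 and H60c 54 sums of 22 classes of the CD45-negative sort. These sums share libraries, depth and cell classes, so the values are descriptions. Klrk1 was followed by Atp8b4 (0.93), Tcf7 (0.90), Ctsw (0.88), Evl (0.87) and Klrc1 (0.87). Hcst was followed by Skap1 (0.94), Nlrc3 (0.93), Rasal3 (0.93) and Bin2 (0.92). Tyrobp was followed by the integrin gene Itgax (0.93), the kinase gene Fgr (0.88), the Fc receptor adaptor gene Fcer1g (0.87), Napsa (0.86) and Pik3r6 (0.86). For Ulbp1 the closest was Kif23 (0.53), a gene of cell division, followed by Cenpn, Mybl1, Depdc1b and Chac1 (0.49 to 0.43). H60c was followed by Sptlc3, which makes sphingoid bases (0.92), Rasgrp1 (0.92), Cfap57 (0.91), Dgcr6 (0.91) and Capns2 (0.90).

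The partners of these genes were followed in the same pools. Of 17 signalling genes downstream of Hcst and Tyrobp, all measured in the lymphocyte pool, 0 were higher or lower by 1.5-fold in alopecia over no alopecia, and in alopecia over wild type 1 was higher, Syk, at 3.79 against 1.33 CPM. In no alopecia over wild type 1 was higher (Syk) and 1 lower (Vav3, at 74.9 against 114 CPM). The medians of the list were -0.00, 0.07 and -0.05, beside 0.09, 0.09 and 0.00 over all genes tested. For this list and those that follow, 16.7%, 14.4% and 15.6% of all genes in the pool differed by at least 1.5-fold in alopecia over no alopecia, alopecia over wild type and no alopecia over wild type.

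Of the 14 receptors that also pair with Tyrobp, 6 were measured in alopecia over wild type and 3 were higher (14.4% of all genes differed either way), with a median of 0.85, beside 0.09 over all genes. They were the Ly49 genes Klra4 (8 against 0.885 CPM) and Klra8 (6.00 against 2.21 CPM) and Pilrb1 (1.93 against 0.590 CPM). In alopecia over no alopecia 3 of 6 were higher (median 0.61), Klra4, Klra8 and Nrp1. In no alopecia over wild type 1 of 5 was higher (Klra4) and 1 lower (Klrc2, 6.78 against 13.1 CPM), with a median of -0.28. NK cells, which carry Ly49 receptors, were a larger share of the alopecia pool, as given above, and the part of that share was not tested.

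Of 10 cytotoxic effector genes in the lymphocyte pool, 2 were higher and 4 lower in alopecia over wild type, beside 14.4% of all genes either way, with a median of -0.23. CD8 T cells were 4.21% and NK cells 1.72% of the pool in alopecia, against 14.5% and 0.450% in wild type, and the part of this make-up was not tested. Higher were Gzma (229 against 80.3 CPM) and the perforin gene Prf1 (87.7 against 46.3 CPM). Lower were the death ligand gene Fasl (17.1 against 42.1 CPM), Ifng (65.3 against 130 CPM), Gzmb (135 against 251 CPM) and Gzmc. The pool leaves out the unnamed lymphoid clusters. Of these, clusters 10 and 12 held Gzmc at 9574 to 15148 CPM, and cluster 4 held Ifng at 565 to 692 CPM. In no alopecia over wild type 5 were lower and 0 higher (median -0.48), among them Ifng (44.4 against 130 CPM) and the chemokine gene Ccl5 (296 against 696 CPM). In alopecia over no alopecia Gzma (229 against 72.7 CPM) and Ccl5 (521 against 296 CPM) were higher (median 0.28).

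Of 11 genes for cytokines that raise or lower NKG2D and for their receptors, 8 were measured in the lymphocyte pool. Il15ra stood at 5.79 CPM in alopecia and 3.79 CPM in no alopecia, against 10.1 CPM in wild type. In alopecia over no alopecia Il15ra was higher and Tgfb1 lower (509.9 against 824 CPM). In no alopecia over wild type Il15ra and Il2 (31.9 against 49.1 CPM) were lower. The medians were 0.12, -0.18 and 0.00. Interleukin 15 is known to raise NKG2D and transforming growth factor beta to lower it.

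Of the DNA damage and stress genes tied to ligand induction, 14 were measured in the lymphocyte pool in alopecia over wild type, with 3 higher and 1 lower (median 0.02), beside 14.4% of all genes either way. The heat shock genes Hspa1a (530.1 against 276 CPM) and Hspa1b (658 against 393 CPM) and the growth factor receptor gene Egfr (6.64 against 3.76 CPM) were higher, and E2f1, a regulator of cell cycle entry, was lower (4.93 against 9.66 CPM). In alopecia over no alopecia, of 13 measured, Hspa1a and Hspa1b were higher and E2f1 lower (median 0.23), beside 16.7% of all genes. In no alopecia over wild type only Gadd45a was, lower (12.4 against 21.2 CPM). Heat shock genes also respond to tissue digestion, and their source was not tested. Of 6 genes that release ligands from the cell surface or restrain that release, Timp3 was lower in alopecia over wild type (0.643 against 2.29 CPM) and in no alopecia over wild type, where Mmp14 was higher (9.57 against 5.09 CPM). None differed in alopecia over no alopecia, and the medians were 0.09, 0.13 and 0.09.

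The same lists were counted in the keratinocyte pool, where the share of basal cells given above differed between the groups and its part was not tested. Of all genes in that pool 31.3%, 10.5% and 36.0% differed by at least 1.5-fold in alopecia over no alopecia, alopecia over wild type and no alopecia over wild type. Of 14 DNA damage and stress genes, 4 were higher and 2 lower in alopecia over no alopecia (median 0.25, beside 0.16 over all genes), 0 were higher and 2 lower in alopecia over wild type (median -0.11, beside -0.02), and 1 was higher and 4 lower in no alopecia over wild type (median -0.31, beside -0.18). Chek1 stood at 4.18 CPM in alopecia and 1.52 CPM in no alopecia, against 7.01 CPM in wild type, and Gadd45b at 118 and 247 CPM, against 210.2 CPM. Of the 8 cytokine genes measured, Il15 stood at 13.9 and 8.07 CPM, against 14.2 CPM, and Il2rg at 6.80 and 18.2 CPM, against 5.22 CPM. Of the 8, 1 was higher and 3 lower in alopecia over no alopecia, none passed 1.5-fold in alopecia over wild type, and 4 were higher and 2 lower in no alopecia over wild type. Of the signalling genes, 5 were higher and 1 lower of 15 measured in alopecia over no alopecia, 1 was lower of 13 in alopecia over wild type, and 1 was higher and 6 lower of 15 in no alopecia over wild type. Among them Fyn, a kinase of the Src family, stood at 13.1 and 5.47 CPM, against 15.2 CPM. Of the effectors only Tnf and Nkg7 were measured, with Tnf at 10.4 and 6.64 CPM, against 16.6 CPM, and of the receptors that pair with Tyrobp only Nrp1, at 4.48 and 1.59 CPM, against 6.49 CPM. Among the 6 release genes, Mmp14 was higher and Timp3 lower in no alopecia over wild type, and none differed in the other comparisons.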

How the data were processed

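The 6 libraries, named below by group and sort, were read as UMI counts per gene and cell, whole numbers deposited by the authors. They were made with the 10x 5′ HT v2 kit, per the labels' protocols, and with Cell Ranger 7.1.0 on mm10, per the submitters' processing notes. Other steps upstream are not given in the sources used here. Barcodes with under 500 UMIs, under 300 genes or over 10.0% mitochondrial UMIs were left out, as were the highest Scrublet doublet scores at 0.4% per 1000 barcodes, since its automatic threshold marked only 0 to 4 barcodes a library. Cells were clustered per sort with scanpy 1.11.5 (2000 variable genes without the 7 members and Il2ra, 30 components, 15 neighbours, Leiden resolution 1.0), and lymphoid clusters again alone. Counts were summed per class and library and scaled to CPM. With 1 library per group no test was made. A gene differed where it had at least 20 UMIs over both libraries and a ratio of at least 1.5-fold, with at least 100 cells in each. Shares of cells were taken after thinning to 1000 UMIs. A fold against 0 used a floor of 3 counts.

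The members, 7 gene lists, 36 marker lists and the naming rule (all members, up to 5 genes most alike, and up to 3 list genes each way per comparison) were chosen with earlier results of these data known. Other ligand genes of the lists, apart from Raet1d, are not analysed here. One of the genes most like Hcst is not reported here. On sums simulated with Poisson counting error alone, the ratio intervals covered the true value at close to their nominal rate. The simulation held no variation between mice or libraries, so it cannot show how the intervals serve for differences between the groups. Alternatives were other filters, doublet rates, clusterings, scalings, thinning depths, and pools with other or reweighted classes. The pools with the unnamed clusters, the pools weighted by wild-type make-up, the pool without NK cells and the subsets of CD8 T and myeloid cells were chosen after seeing the data.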

Additional observations from a re-analysis of the deposited data

Results flagged for a closer look

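In 3 cases the same comparison of a member went opposite ways past 1.5-fold, with both counting intervals clear of no difference, in 2 cell classes or in the 2 pools. These differences were not tested, since each rests on 1 library per group. For Ulbp1, alopecia over wild type gave 1.75 in the keratinocyte pool and -1.23 in the lymphocyte pool, from 25 and 5 UMIs in the first and 88 and 200 UMIs in the second. The inner root sheath held 20 UMIs in alopecia and 0 in wild type, 5.92-fold higher against a floor of 3 counts. Treg cells (-2.07) and cycling leukocytes (-1.44) were lower. For Hcst, alopecia over no alopecia gave a log2 ratio of 0.59 in Treg cells and -0.59 in myeloid cluster 11, an unnamed myeloid cluster. The levels were 196 CPM in alopecia and 130.2 CPM in no alopecia in Treg cells, and 100.3 and 151 CPM in that cluster. For H60c, alopecia over wild type gave 1.66 in upper follicle keratinocytes and -0.64 in suprabasal keratinocytes, both from the CD45-positive sort. The H60c counts behind them were 23 and 6 UMIs in the first class and 59 and 65 UMIs in the second.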

How the results depend on the processing

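Of the alternatives to the pooled levels, counts and shares, 261 kept their value within its spread, 50 moved and 1 turned round. Turning round was counted only for ratios past 1.5-fold at the main setting. A change of sign in a smaller ratio was counted as moved or kept, and several of those that moved changed sign. For alternatives to single classes, 790 kept and 36 moved. Reversed was Tyrobp in the lymphocyte pool, alopecia over wild type, at -0.017 with classes weighted as in wild type. That ratio was 1.42 as a mean over cells, 0.76 with the unnamed clusters added and 0.23 without NK cells. For alopecia over no alopecia Tyrobp was 0.16 with the unnamed clusters and 0.33 weighted, and for no alopecia over wild type 0.63 as a mean over cells, 0.60 with the unnamed clusters, -0.35 weighted and -0.86 without NK cells. Klrk1 in the pool, alopecia over wild type, was -0.36 with TMM scaling and -0.13 with the unnamed clusters, and for no alopecia over wild type -0.064 as a mean over cells and 0.22 with the unnamed clusters. Hcst was 0.048 with the unnamed clusters for alopecia over no alopecia. For alopecia over wild type it was -0.20 with TMM, -0.19 as a mean over cells, 0.030 with the unnamed clusters and 0.12 weighted, and for no alopecia over wild type -0.018 with the unnamed clusters and -0.058 weighted. Raet1e, no alopecia over wild type, was 0.27 as a mean over cells. H60c in keratinocytes, alopecia over no alopecia, was -1.08 with TMM and -0.018 weighted. It was 0.080 weighted for alopecia over wild type, and for no alopecia over wild type 1.00 with the unnamed clusters and 0.10 weighted. The causes were not tested.

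With a 2-fold rule the genes past it numbered 697, 606 and 715 in lymphocytes and 2268, 493 and 2743 in keratinocytes for alopecia over no alopecia, alopecia over wild type and no alopecia over wild type. With no minimum count they numbered 7175, 7077 and 7184, and 10422, 6300 and 12124. The share of lymphocytes with a Klrk1 UMI in alopecia, no alopecia and wild type was 15.1%, 16.8% and 16.9% at 1000 UMIs, 24.8%, 28.7% and 28.4% at 2000 UMIs and 33.9%, 41.2% and 40.5% unthinned. For H60c in keratinocytes it was 0.943%, 1.90% and 0.654%, then 2.50%, 3.97% and 1.59%, and 10.1%, 15% and 6.97%. H60b, with 23, 5 and 17 UMIs in the lymphocyte pool, and Raet1d, with at most 4 UMIs per group in either sort, were too rare for a difference to be detectable at this depth. No paired analysis was possible because each group has 1 library per sort and the labels give no shared replicate numbers.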
